A study of Mus musculus with 12 samples.

Results

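The genes Gpam, Agpat2, Lpin1, Dgat1, Dgat2, Pnpla2, Lipe, Mgll, Lpl and Angptl4 make triglyceride, break it down or control its breakdown, and their RNA was measured in skeletal muscle of mice that carry or lack Stat5a and Stat5b, which encode transcription factors that act downstream of the growth hormone receptor. These 10 genes were taken by symbol, as those to which the platform annotation gives 21 probe sets, out of 18193 genes with a probe set of their own. Each gene was read from its brightest probe set over the 12 arrays, and 10 of 10 lay above the filter on low signal, among 12654 genes tested. Gpam, Agpat2, Lpin1, Dgat1 and Dgat2 are the 5 synthesis members, Pnpla2, Lipe, Mgll and Lpl are the 4 breakdown members, and Angptl4 is an inhibitor of Lpl.

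Total RNA was labelled with biotin and hybridized to 12 single-colour Affymetrix mouse arrays, 3 in each of 4 groups. KO mice with growth hormone (GH) lacked Stat5a and Stat5b and were treated with GH, and WT mice with GH carried both genes and had the same treatment. KO mice without GH and WT mice without GH had no such treatment. The series title speaks of skeletal muscle growth and fibre composition, whereas a treatment label places the loss of both genes in blood cells. The promoter behind the deletion, the muscle sampled, the GH dose and duration, the sex and the age are not given in the sources used here. Stat5b signal averaged 362 ± 25.2 in KO with GH against 1794 ± 101 in WT with GH, and 428 ± 63.7 in KO without GH against 2820 ± 162 in WT without GH (SD, n = 3 each). Stat5a averaged 162 ± 33.5 in KO with GH against 402 ± 29.7 in WT with GH, and 255 ± 97.5 in KO without GH against 627 ± 90.5 in WT without GH, so both deleted genes went with their labels.

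Fast fibre markers had a median signal at percentile 100 of all genes, brown adipocyte markers at 92, slow fibre markers at 88.1, adipocyte markers at 76.5, endothelial markers at 70.5, macrophage markers at 66.3 and hepatocyte markers at 34.2. The arrays with GH also differed from those without in control RNAs that do not come from muscle and in overall signal. Bacterial poly-A control RNAs, which are added before labelling, had a geometric mean signal of 487 to 533 on the 6 arrays with GH against 151 to 173 on the 6 arrays without (3.16-fold, exact permutation p = 0.00216, 2-sided). The median signal was 97.4 to 101.8 with GH against 79.3 to 92.4 without, and the beta actin 3 prime over 5 prime ratio was 0.887 to 1.01 against 0.805 to 0.864. A difference in sample handling and the GH treatment cannot be told apart in this design, and this applies to every comparison of arrays with GH against arrays without.

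Muscle fibres keep part of their fuel as triglyceride in lipid droplets. GPAM joins the first fatty acid to glycerol 3-phosphate, AGPAT2 adds the next, lipin 1 removes the phosphate, and DGAT1 or DGAT2 adds the last fatty acid. Breakdown runs the other way: PNPLA2 (adipose triglyceride lipase) frees the first fatty acid, hormone-sensitive lipase (the product of Lipe) works mainly on diacylglycerol, and MGLL cleaves monoacylglycerol. Lipoprotein lipase, the product of Lpl, frees fatty acids from circulating triglyceride at the capillary wall, and ANGPTL4 inactivates it. GH is known to promote lipolysis in adipose tissue, and the same enzymes work at much greater scale in the adipocytes that lie between muscle fibres.

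RefSeq promoter windows of GRCm38.p6, 250 bases before to 50 bases after an annotated start, matched 6 of the 10 members with 9 windows. Dgat1, Dgat2, Lpl and Angptl4 are named only. Windows of Agpat2, Lipe and Mgll are shown because these members were lower with GH in both genotypes, and that of Lpin1 because its probe sets went the other way. For Lipe and Mgll the window with a motif match is shown, and each has another window without a match. The Lipe and Lpin1 windows shown lie inside their annotated loci, at internal starts. Capitals mark a match to a searched motif, and positions count from 0 at the annotated start.
Agpat2, chr2:26604368-26604667, minus strand: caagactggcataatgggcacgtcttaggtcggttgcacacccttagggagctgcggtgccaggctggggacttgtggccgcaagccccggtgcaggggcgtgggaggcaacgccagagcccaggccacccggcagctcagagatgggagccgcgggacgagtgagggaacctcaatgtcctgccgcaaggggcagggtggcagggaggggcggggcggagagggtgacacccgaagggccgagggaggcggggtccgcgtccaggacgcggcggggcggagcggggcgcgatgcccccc
Lipe, chr7:25395938-25396237, minus strand: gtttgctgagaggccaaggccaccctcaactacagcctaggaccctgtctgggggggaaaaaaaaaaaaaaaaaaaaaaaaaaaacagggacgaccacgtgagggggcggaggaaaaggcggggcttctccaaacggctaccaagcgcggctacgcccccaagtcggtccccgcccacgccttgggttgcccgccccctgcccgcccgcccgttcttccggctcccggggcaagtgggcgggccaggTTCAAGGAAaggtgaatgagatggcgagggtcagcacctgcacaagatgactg
Mgll, chr6:88724162-88724461, plus strand: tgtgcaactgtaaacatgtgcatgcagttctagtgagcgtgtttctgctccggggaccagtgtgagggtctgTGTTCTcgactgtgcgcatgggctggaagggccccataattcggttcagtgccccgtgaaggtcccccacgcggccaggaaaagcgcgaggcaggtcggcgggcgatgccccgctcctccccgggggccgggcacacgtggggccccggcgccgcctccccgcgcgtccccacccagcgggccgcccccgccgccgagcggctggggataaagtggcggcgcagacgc
Lpin1, chr12:16610917-16611216, minus strand: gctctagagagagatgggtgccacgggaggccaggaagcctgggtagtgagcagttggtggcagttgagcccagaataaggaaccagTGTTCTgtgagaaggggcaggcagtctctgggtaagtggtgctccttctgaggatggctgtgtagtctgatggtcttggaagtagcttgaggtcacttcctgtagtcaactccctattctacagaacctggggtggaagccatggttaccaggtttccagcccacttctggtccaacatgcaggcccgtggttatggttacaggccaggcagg
The STAT5 motif TTCNNNGAA, searched on both strands, was found in 1 of the 9 windows, the Lipe window shown, as TTCAAGGAA beginning at position -3. It was found in 8.3% of 32851 promoter windows of the same length. The glucocorticoid receptor motif AGAACA was found in 2 of the 9 windows, as TGTTCT at position -163 for Lpin1 and -178 for Mgll, and in 19.0% of all windows. The PPAR response element, a direct repeat of AGGTCA with 1 base between, was found in 0 of the 9 windows and in 0.0396% of all windows. A match is a stretch of letters and says nothing on binding.

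Read from their brightest probe sets, 7 of the 10 members fell with GH in KO muscle and 6 of 10 fell in WT muscle, and 0 rose in either, while another probe set of Lpin1 rose in both. Over all 12654 genes, 15.4% fell and 8.93% rose with GH in KO, and 11.8% fell and 7.33% rose with GH in WT, by limma at an adjusted p threshold of 0.05. The 3 arrays of each group did not overlap for 7 members in KO (44.4% of all genes) and for 6 members in WT (34.3%). Agpat2, Dgat1, Dgat2, Lipe, Mgll and Lpl were lower in both genotypes, and Angptl4 passed in KO only, a difference between genotypes that did not pass its own test. Median log2 fold changes of the 10 members were -0.63 in KO and -0.31 in WT, beside -0.065 and -0.055 over all genes tested. With each array centred on its median, the median of all genes was -0.245 in KO and -0.24 in WT, and the share of called genes that were higher was 13.3% in place of 36.7% in KO and 11.1% in place of 38.4% in WT. Under that centring 9 of the 10 members fell in KO, where Gpam and Pnpla2 joined, and 7 in WT, beside 4195 and 3939 of the 12654 genes. Because these are bulk samples, fewer cells of a type and less RNA per cell cannot be told apart.

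**Figure D1:**
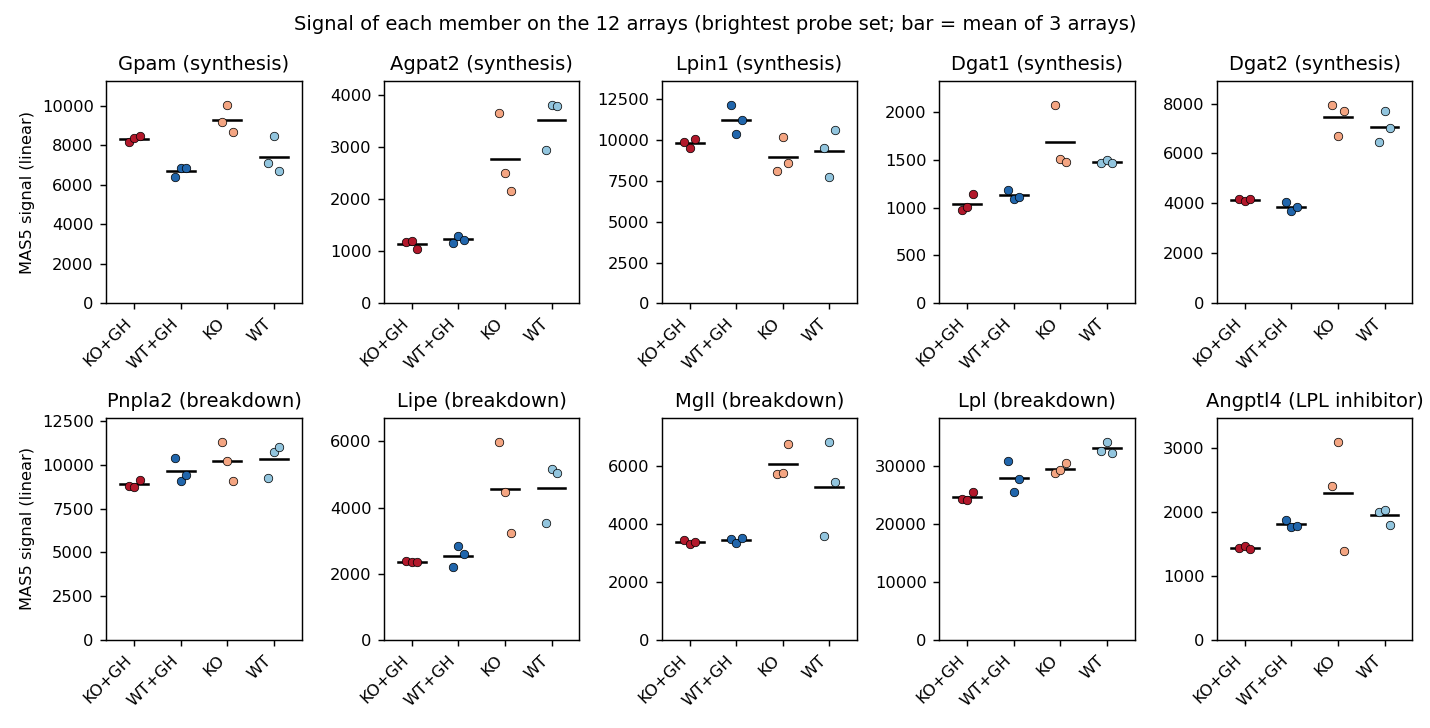
Deposited MAS5 signal (linear scale, from 0) of the brightest probe set of each member on each of 12 arrays, in the order KO with GH, WT with GH, KO without GH and WT without GH, with a bar at the mean of 3 arrays. Agpat2, Dgat1, Dgat2, Lipe, Mgll and Lpl are lower with GH in both genotypes with no overlap, while Lpin1 and Pnpla2 overlap.

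Agpat2, read from 1428821_at, encodes the acyltransferase that makes phosphatidic acid, and it had the largest difference with GH among the members in both genotypes. Its signals were 1175, 1199 and 1042 in KO with GH, against 3662, 2506 and 2165 in KO without GH. In WT they were 1166, 1303 and 1221 with GH, against 2940, 3815 and 3789 without GH. All arrays with GH lay below all arrays without, and the arrays without GH spread over a wider range. Its log2 fold change was -1.24 ± 0.15 (SE) in KO (limma, adjusted p = 5.56e-05) and -1.49 ± 0.15 in WT (adjusted p = 1.53e-05).

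Dgat2, 1 of the 2 enzymes for the final step, had signals of 4167, 4116 and 4175 in KO with GH, against 7947, 6689 and 7708 in KO without GH. The WT signals were 4059, 3716 and 3853 with GH, against 6443, 7692 and 7027 without GH. The groups were far apart in both genotypes, and the GH arrays differed little among themselves. Dgat2 had a log2 fold change of -0.83 ± 0.084 in KO (limma, adjusted p = 6.76e-06) and -0.86 ± 0.084 in WT (adjusted p = 8.26e-06), and a further probe set gave -0.87 and -0.83.

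Dgat1, the other enzyme of that step, had signals of 973, 1011 and 1138 in KO with GH, against 2073, 1510 and 1479 in KO without GH. In WT the signals were 1183, 1091 and 1111 with GH, against 1467, 1500 and 1469 without GH. There was no overlap in either genotype, and 1 KO array without GH stood above its 2 fellows. Dgat1 had a log2 fold change of -0.67 ± 0.11 in KO (limma, adjusted p = 0.000704) and -0.38 ± 0.11 in WT (adjusted p = 0.0292). The WT call was lost without WT with GH replicate 2 or 3 or without WT replicate 2 or 3. Its dim further probe set, 1445229_at, with means of 113 ± 14.2 in KO with GH and 108 ± 41.8 in KO without GH, and 134 ± 36.0 in WT with GH and 70.4 ± 34.4 in WT without GH, gave log2 fold changes of 0.09 in KO and 0.77 in WT, and neither passed. The mean over both probe sets gave -0.29 in KO (adjusted p = 0.16) and 0.19 in WT (adjusted p = 0.38).

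Gpam, the mitochondrial acyltransferase that opens the pathway, had signals of 8156, 8366 and 8458 in KO with GH, against 9151, 10042 and 8692 in KO without GH. In WT they were 6385, 6863 and 6825 with GH, against 7102, 8450 and 6715 without GH. The KO groups did not overlap and the WT groups did. The log2 fold change with GH was -0.16 ± 0.088 in KO (limma, adjusted p = 0.216, 95% interval -0.34 to 0.031) and -0.14 ± 0.088 in WT (adjusted p = 0.282, -0.33 to 0.044). With each array centred on its median both passed, at -0.34 in KO (adjusted p = 0.0149) and -0.33 in WT (adjusted p = 0.0195). The mean over its probe sets passed too, at -0.56 in KO (adjusted p = 0.000751) and -0.32 in WT (adjusted p = 0.023).

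Lpin1, the phosphatidate phosphatase that also acts as a transcriptional coactivator, had signals of 9859, 9532 and 10054 in KO with GH, against 8088, 10179 and 8609 in KO without GH. In WT they were 12162, 10364 and 11238 with GH, against 9539, 7770 and 10625 without GH. The groups overlapped in both genotypes. Lpin1 had a log2 fold change of 0.14 ± 0.11 in KO (limma, adjusted p = 0.399, 95% interval -0.099 to 0.37), turning to -0.042 with each array centred on its median, and 0.28 ± 0.11 in WT (adjusted p = 0.091, 0.045 to 0.52).

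Other probe sets of Gpam and Lpin1 gave larger differences than the brightest ones. For Lpin1, 1426516_a_at had signals of 8166, 8374 and 8459 in KO with GH, against 4306, 5050 and 4575 in KO without GH, and 9128, 8718 and 9668 in WT with GH, against 5263, 4798 and 5399 in WT without GH. Every array with GH was above every array without, and the log2 fold change was 0.84 in KO (limma over all probe sets above the filter, adjusted p = 4.74e-06) and 0.83 in WT (adjusted p = 8.14e-06). The mean over the Lpin1 probe sets was 0.49 in KO (adjusted p = 0.00208) and 0.56 in WT (adjusted p = 0.00106). For Gpam, 1425834_a_at had 728, 693 and 643 in KO with GH, against 1560, 1420 and 1122 in KO without GH, and 814, 579 and 569 in WT with GH, against 1013, 903 and 869 in WT without GH. Its log2 fold change was -0.95 in KO (by the same fit, adjusted p = 0.000277) and -0.51 in WT (adjusted p = 0.0234).

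The log2 ratio of each further probe set to its gene's brightest one was compared between the 6 arrays with GH and the 6 without. This was done for 8 pairs of probe sets and chosen after their values were seen. The ratio differed by 0.63 for Lpin1 (exact permutation p = 0.00216, adjusted p = 0.0173), by -0.58 for Gpam (exact permutation p = 0.00433), by 0.95 for Dgat1 (exact permutation p = 0.00649), by -0.17 for the Mgll probe set 1453836_a_at (exact permutation p = 0.00866) and by -0.17 for Lpl (exact permutation p = 0.0108), each with the same adjusted p. Since these pairs were chosen after their values were seen, the p-values are a description, and the further probe set of Dgat1 is dim. For Dgat2 and Pnpla2 and the Mgll probe set 1450391_a_at the exact permutation p was 0.952, 0.764 and 0.37. Which transcripts the probe sets read was not tested.

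**Figure D2:**
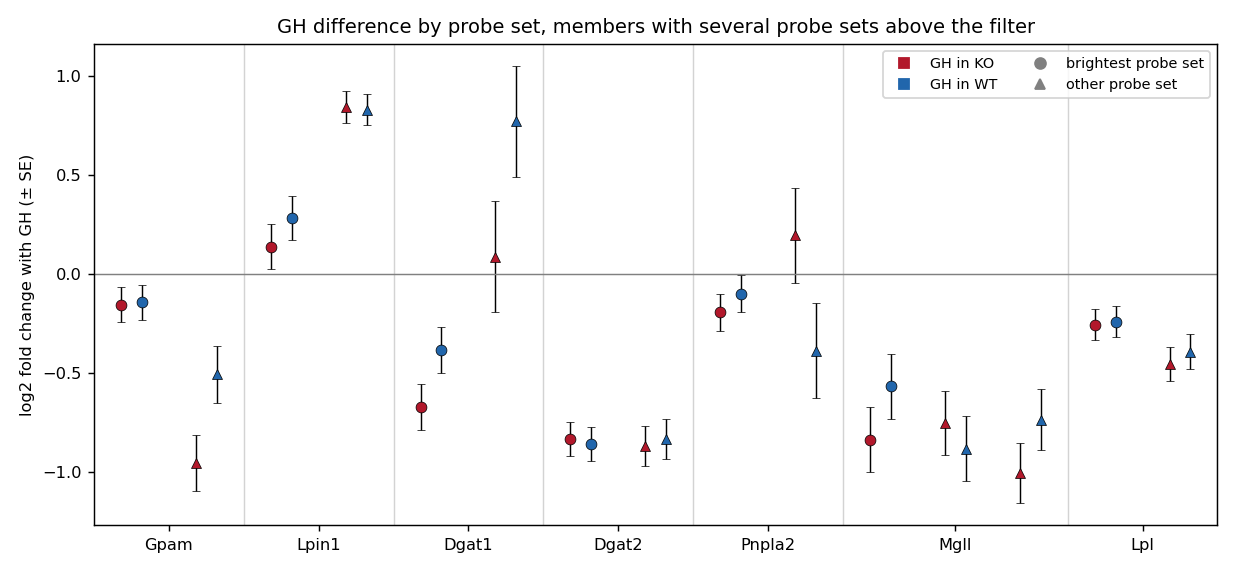
Log2 fold change with GH (y axis, ± SE) in KO (red) and WT (blue) for each probe set above the filter of the 7 members that have several, with circles for the brightest probe set and triangles for the others. Lpin1 rises by 0.84 and 0.83 on its other probe set, and Gpam falls by 0.95 and 0.51 on its other probe set.

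Among the breakdown genes, Lipe had signals of 2388, 2357 and 2367 in KO with GH, against 5996, 4484 and 3243 in KO without GH. The WT signals were 2207, 2839 and 2601 with GH, against 3548, 5175 and 5040 without GH. The arrays with GH lay below those without in both genotypes, and the KO arrays without GH were widely spread. Lipe had a log2 fold change of -0.90 ± 0.19 in KO (limma, adjusted p = 0.00345) and -0.83 ± 0.19 in WT (adjusted p = 0.00733). The mean over its probe sets, of which 1 is below the filter, gave -0.40 and -0.26, and neither passed (adjusted p = 0.0902 and 0.288).

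Mgll, which completes lipolysis, had signals of 3446, 3303 and 3369 in KO with GH, against 5700, 5748 and 6756 in KO without GH. In WT the signals were 3484, 3323 and 3494 with GH, against 3564, 6829 and 5443 without GH. WT replicate 1 without GH lay close to the arrays with GH, and the groups did not overlap. Mgll had a log2 fold change of -0.84 ± 0.16 in KO (limma, adjusted p = 0.00207) and -0.57 ± 0.16 in WT (adjusted p = 0.0257). The WT call was lost on leaving out any WT array with GH, WT replicate 2 or WT replicate 3 (adjusted p up to 0.0885), and the log2 fold change was -0.36 without WT replicate 2 and -0.82 without WT replicate 1.

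Pnpla2, which opens lipolysis, had signals of 8782, 8746 and 9132 in KO with GH, against 11338, 10250 and 9066 in KO without GH. The WT signals were 10418, 9096 and 9414 with GH, against 9245, 10755 and 11049 without GH. The groups overlapped in both genotypes. Pnpla2 had a log2 fold change of -0.20 ± 0.094 in KO (limma, adjusted p = 0.146, 95% interval -0.39 to 0.0045) and -0.10 ± 0.094 in WT (adjusted p = 0.5, -0.30 to 0.100). The KO value passed without KO replicate 3, at -0.28 (adjusted p = 0.047), and with each array centred on its median, at -0.38 (adjusted p = 0.0225).

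Lpl had signals of 24412, 24134 and 25563 in KO with GH, against 28744, 29329 and 30511 in KO without GH. In WT they were 30870, 25489 and 27720 with GH, against 32645, 34249 and 32310 without GH. The arrays with GH were lower with no overlap, by a small margin. Lpl had a log2 fold change of -0.26 ± 0.078 in KO (limma, adjusted p = 0.0259) and -0.24 ± 0.078 in WT (adjusted p = 0.0409). The KO call was lost without any KO array with GH, KO replicate 2 or KO replicate 3, and the WT call in 8 of the 12 such fits, all but those without WT with GH replicate 1, KO replicate 1, KO replicate 3 or WT replicate 1. Quantile normalization gave -0.068 in KO and -0.13 in WT (adjusted p = 0.281 and 0.0533).

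Angptl4 had signals of 1445, 1476 and 1425 in KO with GH, against 2415, 3109 and 1396 in KO without GH. The WT signals were 1886, 1776 and 1789 with GH, against 2007, 2042 and 1806 without GH. KO replicate 3 without GH lay below all 3 KO arrays with GH, so the KO groups overlapped, and the WT groups overlapped too. The log2 fold change was -0.59 ± 0.19 in KO (limma, adjusted p = 0.041) and -0.10 ± 0.19 in WT (adjusted p = 0.765). The KO call was lost in 10 of the 12 fits that leave out 1 array, all but those without KO replicate 3 or WT replicate 2 (adjusted p up to 0.161). The log2 fold change was -0.34 without KO replicate 2 (adjusted p = 0.161) and -0.91 without KO replicate 3 (adjusted p = 3.74e-05).

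Several markers of adipocytes moved with these genes. Of 9 measured markers, 6 fell with GH in KO and 5 fell with GH in WT, among them Retn, Adipoq and Cidec. Over all genes 15.4% fell and 8.93% rose in KO, and 11.8% fell and 7.33% rose in WT. Lep, the leptin gene, did not pass and had higher means with GH. They were 261 ± 13.8 with GH against 180 ± 84.8 without in KO, and 251 ± 31.0 against 176 ± 37.2 in WT. The summed signal of the 9 markers was 36714 to 39676 in KO with GH against 42849 to 69983 in KO without GH, and 36847 to 39623 in WT with GH against 42750 to 59907 in WT without GH. Adipoq, the adipocyte hormone adiponectin, averaged 8972 ± 114 in KO with GH against 16802 ± 4643 in KO without GH, and 8955 ± 1225 in WT with GH against 14195 ± 1622 in WT without GH, so no group lacked this marker. Fast fibre markers fell too with GH in KO, 8 of 10, with a summed signal of 409001 to 432212 in KO with GH against 499725 to 656200 in KO without GH, and 0 of 10 passed with GH in WT by limma (3 at an unadjusted p under 0.05). These counts depend on the scaling: with quantile normalization 2 rose and 2 fell in KO, and with each array centred on its median 9 fell in KO and 9 in WT. Slow fibre markers went the other way in WT, where 6 of 9 rose with GH, with a median log2 fold change of 1.06, and in KO 0 of 9 passed by limma (1 at an unadjusted p under 0.05). Myh7, the slow myosin heavy chain, averaged 2658 ± 339 in WT with GH against 483 ± 564 in WT without GH (7.98-fold, limma, adjusted p = 0.0104). The part of these markers in the results on the 10 members was not tested.

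With GH, 0 of the 10 members differed between KO and WT by limma, with 4.53% of all genes called. An unadjusted p under 0.05 was found for 2 of 10, beside 2090 of the 12654 genes tested. Without GH, 0 of 10 differed as well, with 1.45% of all genes called. Here 2 of 10 had an unadjusted p under 0.05, beside 1478 of the 12654 genes. The groups did not overlap for 4 members with GH (30.0% of all genes) and for 2 members without GH (13.2%). These comparisons use the same arrays as those of GH, and each is given on its own.

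**Figure D3:**
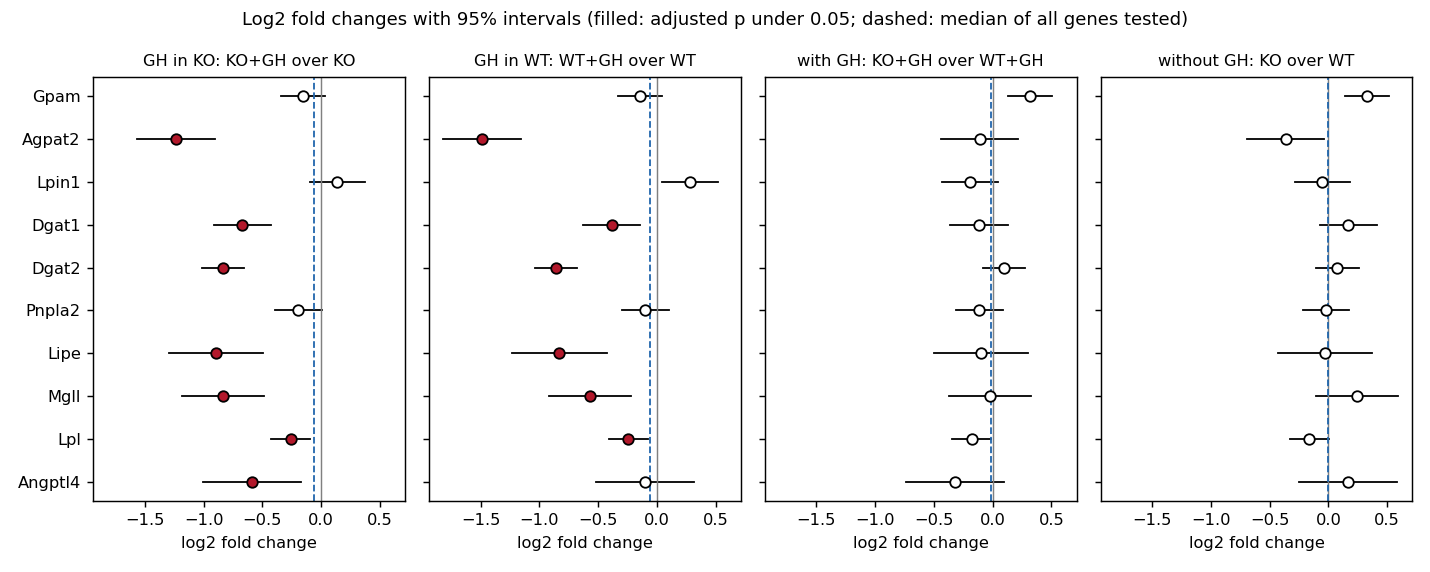
Log2 fold change (x axis) of each member with its 95% interval in 4 comparisons: GH in KO, GH in WT, KO over WT with GH and KO over WT without GH. Filled points passed an adjusted p of 0.05, the dashed line is the median of all genes tested, and filled points occur only in the GH panels, all below 0.

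Gpam was the member nearest to the threshold between genotypes, and it was higher in KO in both settings with no overlap. The means were 8326 ± 155 in KO with GH against 6691 ± 266 in WT with GH, and 9295 ± 687 in KO without GH against 7422 ± 911 in WT without GH (SD, n = 3 each). From the highest, the order was KO without GH, KO with GH, WT without GH and WT with GH, and of these neighbours only the KO groups did not overlap. The log2 fold change was 0.32 ± 0.088 with GH (limma, adjusted p = 0.0548, 95% interval 0.13 to 0.50) and 0.33 ± 0.088 without GH (adjusted p = 0.0864, 0.14 to 0.51). It passed with GH where only arrays with GH were fitted (adjusted p = 0.00275) and on leaving out KO replicate 3 or any WT array without GH (adjusted p down to 0.0203), and without GH on leaving out WT replicate 2 (adjusted p = 0.0138). The further probe set gave 0.09 with GH and 0.54 without GH (adjusted p = 0.828 and 0.107).

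Angptl4 did not overlap between KO and WT with GH, and its log2 fold change there was -0.32 ± 0.19 (limma, adjusted p = 0.454, 95% interval -0.74 to 0.096). Where the fit held only arrays with GH, the same difference had an SE of 0.055 and passed (adjusted p = 0.00342). Without GH its difference was 0.17 ± 0.19 (adjusted p = 0.813, -0.25 to 0.58), and without KO replicate 3 it was 0.49 and passed (adjusted p = 0.035). Mean signals were 1449 ± 25.7 in KO with GH against 1817 ± 60.1 in WT with GH, and 2307 ± 861 in KO without GH against 1952 ± 127 in WT without GH (SD, n = 3 each). In that order of levels the lowest group, KO with GH, stood clear of the next, and the other neighbours overlapped.

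Agpat2 averaged 2778 ± 785 in KO without GH against 3515 ± 498 in WT without GH, a log2 fold change of -0.36 ± 0.15 (limma, adjusted p = 0.366, 95% interval -0.69 to -0.033). The groups overlapped, and it was -0.58 and passed without KO replicate 1 (adjusted p = 0.0226), and -0.20 without KO replicate 3 (adjusted p = 0.711). Lpl was lower in KO by a like amount in both settings, at -0.18 with GH (limma, adjusted p = 0.261, -0.34 to -0.012) and -0.16 without GH (adjusted p = 0.44, -0.33 to 0.0029). The Lpl groups overlapped with GH and not without. Lpin1 and Dgat2 did not overlap with GH, at -0.19 and 0.10, and neither passed (limma, adjusted p = 0.417 and 0.626).

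The remaining differences between KO and WT lay within ± 0.25 on the log2 scale and had wide intervals. With GH, the intervals of Dgat1, Pnpla2, Lipe and Mgll ran between -0.50 and 0.32. Without GH, those of Lpin1, Dgat1, Dgat2, Pnpla2, Lipe and Mgll ran between -0.43 and 0.59. Slow fibre markers differed between genotypes beside these values. Without GH, where 1.45% of all genes were called, 6 of these 9 markers were higher in KO. With GH, 0 of these 9 markers passed limma's threshold (2 at an unadjusted p under 0.05). Their summed signal was 39585 to 40801 in KO with GH against 33999 to 35681 in WT with GH, and 41811 to 51766 in KO without GH against 15117 to 36247 in WT without GH. Their part in the values of the 10 members was not tested.

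The response to GH was not shown to differ between KO and WT for any member. In limma's interaction test 0 of 10 passed, with 0.933% of all genes called. An unadjusted p under 0.05 was found for 0 of 10, beside 1319 of the 12654 genes. The largest interaction was that of Angptl4, at -0.49 ± 0.28 (adjusted p = 0.581, 95% interval -1.08 to 0.10), and it was -0.81 and passed without KO replicate 3 (adjusted p = 0.00972), and -0.24 without KO replicate 2 (adjusted p = 0.763). Dgat1 had -0.29 (-0.63 to 0.058) and Agpat2 had 0.25 (-0.21 to 0.72), so differences of these sizes lie within the error.

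Of the synthesis genes 3 of 5 fell with GH in each genotype, and of the breakdown genes 3 of 4, beside 15.4% of all genes in KO and 11.8% in WT. The median log2 fold change was -0.67 for synthesis and -0.55 for breakdown in KO, and -0.38 for synthesis and -0.40 for breakdown in WT. On each array, the mean deviation of a class from its genes' own means gives a level on the log2 scale. For synthesis it was -0.28 to -0.25 in KO with GH and -0.29 to -0.25 in WT with GH, against 0.17 to 0.42 in KO without GH and 0.17 to 0.30 in WT without GH. For breakdown it was -0.32 to -0.28 in KO with GH and -0.22 to -0.17 in WT with GH, against 0.15 to 0.37 in KO without GH and -0.018 to 0.42 in WT without GH. WT replicate 1 without GH was the array at the low end of the breakdown range.

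The balance of synthesis over breakdown, the difference of these levels, lay between -0.13 and 0.19 on all arrays. It was 0.015 to 0.051 in KO with GH and -0.079 to -0.069 in WT with GH, against 0.020 to 0.054 in KO without GH and -0.13 to 0.19 in WT without GH. The KO and WT arrays with GH did not overlap, with means of 0.029 ± 0.019 in KO and -0.073 ± 0.0055 in WT (SD, n = 3 each), and the KO values with and without GH overlapped. Between KO and WT with GH, 30.0% of all genes did not overlap either, and the balance was not tested. It rests on the brightest probe sets only. The other Gpam probe set gave 0.09 between KO and WT with GH in place of 0.32, and the other Lpin1 probe set rose with GH by 0.84 in KO and 0.83 in WT. The balance of KO without GH lay within the range of WT without GH.

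**Figure D4:**
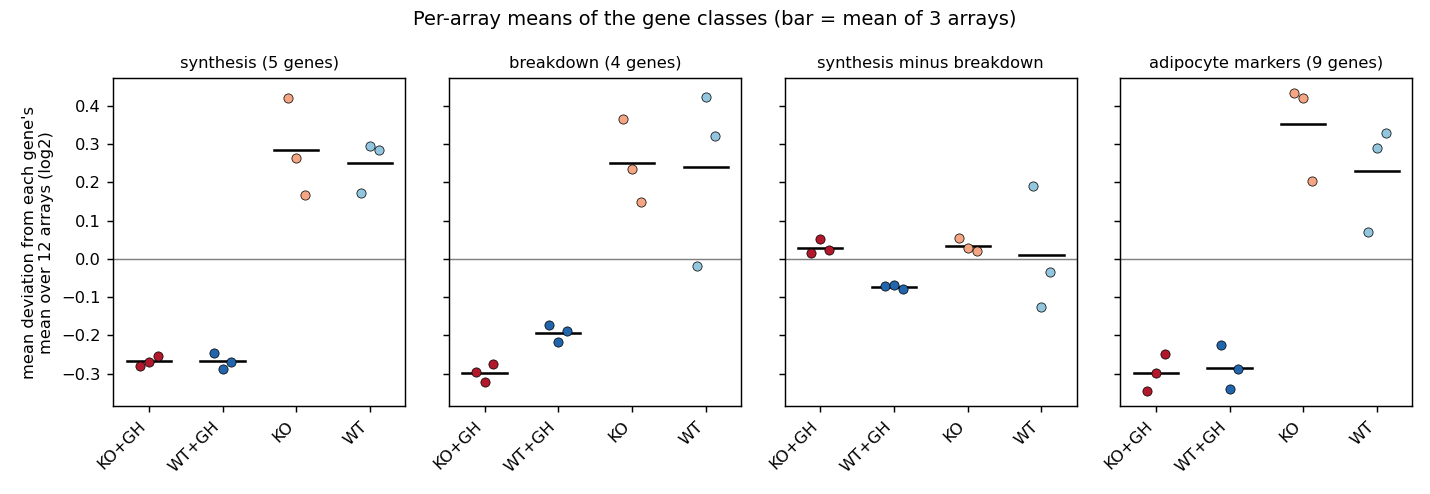
Mean deviation of each gene from its own mean over 12 arrays (log2, y axis) for 5 synthesis genes, 4 breakdown genes, their difference, and 9 adipocyte markers on each array, with a bar at the mean of 3 arrays. Synthesis, breakdown and adipocyte markers are low on all 6 arrays with GH, and the difference of synthesis and breakdown lies between -0.13 and 0.19.

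Other genes of glycerolipid synthesis were lower with GH as well. Of 13 tested, 6 fell and 0 rose in KO, and 7 fell and 0 rose in WT, with median log2 fold changes of -0.24 and -0.52. Among all genes tested, 15.4% fell in KO and 11.8% in WT. Agpat1, another acyltransferase of the Agpat2 step, averaged 1341 ± 37.2 in KO with GH against 2579 ± 422 in KO without GH (log2 fold change -0.92, limma, adjusted p = 6.29e-05). In WT its log2 fold change was -0.75 (limma, adjusted p = 0.000463). Pck1, the PEP carboxykinase of glyceroneogenesis, averaged 1534 ± 73.5 in KO with GH against 3165 ± 863 in KO without GH (0.501-fold, limma, adjusted p = 0.00097). Pck1 fell in WT too (log2 fold change -0.83, limma, adjusted p = 0.00463). Gpd1, which makes glycerol 3-phosphate, fell in WT to 8632 ± 549 with GH, against 12391 ± 830 without GH (-0.52, limma, adjusted p = 0.000402). Gpd1 also fell in KO, to 10367 ± 311 with GH against 12272 ± 831 without GH. Between genotypes 1 of 13 passed, with GH, where 4.53% of all genes were called. Gpat3, an endoplasmic reticulum relative of Gpam, was higher in KO with GH, at 633 ± 38.1, against 268 ± 12.2 in WT with GH (2.24-fold, limma, adjusted p = 0.00215). Without GH it averaged 555 ± 225 in KO and 452 ± 86.8 in WT, and with GH it fell in WT and did not pass in KO.

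Among 17 genes of lipid droplets and lipolysis control, 2 rose and 7 fell with GH in KO, and 2 rose and 6 fell in WT. For all genes these shares were 8.93% and 15.4% in KO, and 7.33% and 11.8% in WT. Plin4, a droplet coat protein, rose to 11917 ± 150 in KO with GH, against 6731 ± 457 in KO without GH (log2 fold change 0.82, limma, adjusted p = 2.37e-06), and to 13156 ± 971 in WT with GH, against 6997 ± 136 in WT without GH (0.91, adjusted p = 1.52e-06). The other riser in both genotypes was Plin5, the droplet coat protein of oxidative tissues. Cidec, which fuses droplets in adipocytes, fell by 0.89 in KO and by 1.02 in WT, and Pde3b, the phosphodiesterase through which insulin restrains lipolysis, fell by 0.84 in KO and by 0.75 in WT. Ces1d, a carboxylesterase that hydrolyses triglyceride, fell by 0.80 in KO and by 0.63 in WT. Between KO and WT 0 of 17 passed limma's threshold with GH (3 at an unadjusted p under 0.05) and 0 of 17 without GH (7).

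Of 9 genes tested that handle Lpl or its lipoprotein substrates, 2 rose and 1 fell with GH in KO, and 2 rose and 0 fell in WT, beside 8.93% of all genes that rose in KO and 7.33% in WT. The gene that fell in KO was Lmf2. Apoa5, which rose in KO, was dim, at 104 ± 3.74 with GH against 48.9 ± 7.79 without. Vldlr, the receptor that binds lipoproteins beside Lpl, averaged 8905 ± 402 in KO with GH against 4397 ± 211 in KO without GH, and 6270 ± 289 in WT with GH against 4779 ± 178 in WT without GH. It rose in both (log2 fold change 1.01 and 0.39, limma, adjusted p = 1.38e-07 and 0.00158), and it was higher in KO with GH than in WT with GH by 0.50 (adjusted p = 0.000438). Gpihbp1, which brings Lpl to the capillary surface, rose to 4657 ± 236 in WT with GH, against 3172 ± 831 in WT without GH (log2 fold change 0.58, limma, adjusted p = 0.00773).

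Of 10 genes of fatty acid uptake and activation, 1 rose and 3 fell with GH in KO and 3 fell in WT. The shares over all genes were 8.93% that rose and 15.4% that fell in KO, and 11.8% that fell in WT. Acsl5, an acyl-CoA synthetase, fell by 0.44 in KO and by 0.77 in WT, and Fabp5, a fatty acid binding protein, fell by 0.91 in KO and by 0.75 in WT. Acsl3, an acyl-CoA synthetase of lipid droplets, was lower in KO in both settings, averaging 295 ± 46.96 in KO with GH against 744 ± 18.2 in WT with GH (log2 fold change -1.28, limma, adjusted p = 0.000934), and 204 ± 55.2 in KO without GH against 695 ± 214 in WT without GH (-1.64, adjusted p = 0.000395). The others that passed between genotypes were Acsl6 with GH, at -0.40, and Acsl4 without GH, at -0.76. These genes supply the acyl-CoA that the synthesis members use.

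Of 14 regulators of lipid genes, 5 were lower in KO with GH, and without GH 0 of 14 passed limma's threshold (2 at an unadjusted p under 0.05). The share of all genes called in either direction was 4.53% with GH and 1.45% without. Klf15, a factor of amino acid and lipid metabolism, averaged 1624 ± 73.5 in KO with GH against 4817 ± 168 in WT with GH (log2 fold change -1.55, limma, adjusted p = 2.1e-07). The log2 fold change was -0.81 for Foxo1, a driver of gluconeogenic genes, -0.98 for Ppara, a driver of fatty acid oxidation, and -0.52 for Srebf1, a driver of lipogenic genes, and the other was Ppargc1a. With GH, Cebpa fell by 1.71 in KO and by 1.57 in WT, while Foxo1 rose by 1.16 in KO and 1.47 in WT. Srebf1 fell by 1.03 in KO and fell in WT too, to 1946 ± 143 with GH against 2749 ± 198 without GH.

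Likeness to each member was measured as the root mean square difference of log2 values over 12 arrays, each gene centred on its own mean. Fasn, the fatty acid synthase, was most like Agpat2, at 0.14 beside a spread of 0.72 for Agpat2 itself. Pck1 was most like Lipe, at 0.10 beside a spread of 0.49, and Mcam was most like Dgat2, at 0.080 beside 0.43. Among the 3 nearest genes of each of the 10 members, 0 were members. The 12 arrays share the split by GH, and likeness over them follows it.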

How the data were processed

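The deposited values are intensity per probe set on a linear scale, made by the authors with MAS5 per the submitters' processing notes. The version and settings are not given in the sources used here. On each of the 12 arrays the mean without the lowest and highest 2% was 500, a scaling to 1 target. Of 45101 probe sets, 64 controls, 932 with several symbols and 9160 with none were left out.

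Values were taken as log2(signal + 25). Fold changes come from group means of these log2 values, so they can differ from ratios of the mean signals. A gene was kept if its brightest probe set exceeded the 40th percentile over probe sets (6.253). With R 4.3.3 and statmod 1.5.0, limma 3.58.1 fitted 1 mean per group over all 12 arrays, with 8 residual degrees of freedom and eBayes with trend and robust settings. The 5 comparisons were GH in KO, GH in WT, KO against WT with GH, the same without GH, and their interaction. P-values are 2-sided, Benjamini-Hochberg adjusted over 12654 genes, with a threshold of 0.05. An unadjusted p under 0.05 was found for 4624 of these genes for GH in KO and 4120 for GH in WT. Between KO and WT the number was 2090 with GH and 1478 without GH. Counts at an unadjusted p are to be read beside these. Each array's title holds a number of its own, with the letter M before it on all arrays with GH and on no array without. The labels do not say what the numbers stand for. The p-values measure the spread between 3 arrays a group, taken as separate animals, and nothing says more of their origin. "Rose" and "fell" mean past that threshold.

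The members and lists were chosen with earlier results of these data known. All members are named, with the marker lists and, of each other list, up to 4 called genes by smallest p, of which the text describes some. Plin5 and Ppargc1a were named after their values were seen. Tested on simulated data (12654 genes, 200 of them changed), the fit recovered 73.1% of 2-fold changes for GH in KO, 65.7% for GH in WT and 77.6% between KO and WT with GH. The simulation gave each gene the same spread in all groups. In the data the synthesis level had an SD of 0.016 on arrays with GH and 0.093 on those without. These shares are therefore a rough guide to the comparisons made here. The 3 motifs were searched on both strands. Alternatives covered normalization, pseudocount, filter, probe set choice, spread estimate, array weights and left-out arrays.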

Additional observations from a re-analysis of the deposited data

Results flagged for a closer look

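The difference with GH was tested between KO and WT for the genes of the lists, by limma's interaction, and 3 genes passed. Over all genes tested, 0.933% passed. Vldlr, the lipoprotein receptor, rose more with GH in KO than in WT, with an interaction of 0.62 on the log2 scale (limma, adjusted p = 0.00498). Klf15, a lipid regulator, rose with GH in WT by 1.69 and its interaction was -1.42 (limma, adjusted p = 9.23e-05). Atp2a2, the slow fibre calcium pump, rose with GH in WT by 0.88 and its interaction was -1.05 (limma, adjusted p = 0.00629). The WT arrays without GH differed widely in slow fibre markers, whose mean deviation ran from -1.77 to -0.21 on them (log2).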

How the results depend on the processing

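Of 24 alternatives, which include leaving out each of the 12 arrays, Agpat2, Dgat2 and Mgll kept their call for GH in KO under every one that was run, as did Agpat2 and Dgat2 for GH in WT. The number of members called for GH in WT was 3 in place of 6 without the trend and robust settings. For KO against WT with GH, where 0 members were called, it was 1 with array weights, 1 when the filter was raised to the 60th percentile, 2 with only the 2 groups compared in the fit, and 2 without WT replicate 1 and KO replicate 3 together. Without GH it was 1 with array weights, 1 when all probe sets of a gene were averaged, and 1 without those 2 arrays, which also gave 1 in the interaction. Leaving out 1 array gave 0 to 1 with GH, 0 to 1 without GH, 5 to 7 for GH in KO, 3 to 6 for GH in WT and 0 to 1 for the interaction.

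The sign turned in 22 of 229 values of the members for the interaction, in 13 of 239 for KO against WT without GH, in 2 each for GH in KO and GH in WT and in 0 for KO against WT with GH, and the cause was not tested. Dgat1 with GH was 0.087 in KO and 0.77 in WT without probe sets marked _x_at or _s_at, and 0.19 in WT with the mean of all probe sets. That mean gave -0.0055 for Dgat2 and 0.24 for Pnpla2 in the interaction. Lpin1 for GH in KO was -0.042 with each array centred on its median. Lpl in the interaction was 0.025 with array weights, 0.060 with quantile normalization and 0.018 without WT replicate 1 and KO replicate 3. Without those 2 arrays, KO against WT without GH gave -0.012 for Dgat2, 0.022 for Lipe and -0.091 for Mgll, and the Mgll interaction was 0.065. Leaving out 1 array, the differences of KO from WT without GH ran from -0.17 to 0.050 for Lpin1, -0.099 to 0.063 for Pnpla2, -0.24 to 0.20 for Lipe, -0.011 to 0.46 for Mgll and -0.084 to 0.49 for Angptl4. The interactions ran from -0.11 to 0.056 for Gpam, -0.053 to 0.085 for Dgat2, -0.29 to 0.15 for Lipe and -0.081 to 0.057 for Lpl.

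Fits with only the compared groups were not run for the interaction, and Angptl4 has no value without _s_at probe sets, since its other one is below the filter. No paired analysis was run, because the titles give each array a number of its own and name no pairs. The 3 arrays per group limit the precision: of simulated 1.5-fold changes, with the same spread in all groups, 47.8% were recovered for GH in KO. Array weights were lowest for WT replicate 1 (0.319) and KO replicate 3 (0.421).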

Other observations

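Some markers of other cell types in muscle fell with GH beside the adipocyte markers. Apart from Apoa1, which rose in WT, the rest of those given here did not pass. Of all genes tested, 15.4% fell in KO and 11.8% in WT. Of 7 macrophage markers, 5 fell in KO and 3 fell in WT with GH, and Lyz2, the macrophage lysozyme, averaged 2485 ± 37.3 in KO with GH against 4309 ± 1138 in KO without GH. Of 6 endothelial markers, 3 fell in each genotype, and Tek and Tie1, which did not pass, averaged 886 ± 271 and 539 ± 49.1 in KO with GH against 644 ± 42.8 and 448 ± 34.2 in KO without GH. Kdr, the endothelial VEGF receptor, averaged 546 ± 57.2 in KO with GH against 1048 ± 130 in KO without GH, and 324 ± 12.2 in WT with GH against 980 ± 143 in WT without GH, and it was higher in KO with GH than in WT with GH (log2 fold change 0.70, limma, adjusted p = 0.00325). Of 5 brown adipocyte markers, 2 fell in KO (Dio2 and Cox8b) and 1 fell in WT (Dio2) with GH. Their median log2 fold changes were -0.61 in KO and -1.15 in WT. Ucp1, Cidea and Elovl3 did not pass. Ucp1 averaged 2823 ± 53.2 in KO with GH against 4858 ± 2846 in KO without GH. In WT it averaged 2082 ± 46.5 with GH against 5593 ± 3152 without. Cidea averaged 2555 ± 107 in KO with GH against 4324 ± 1121 in KO without GH. In WT it averaged 2550 ± 15.7 with GH against 6400 ± 3173 without. Both varied widely between arrays without GH. Cox8b averaged 33699 ± 869 in KO with GH against 44419 ± 5558 in KO without GH. This is near the level of the fast fibre marker Myh4, at 42284 ± 1477 and 56415 ± 5102. The cells that gave the Cox8b signal were not tested. Of 3 hepatocyte markers tested, Cyp2e1 fell in both genotypes and Apoa1 rose in WT with GH. Apoa1 was dim, at 140 ± 13.8 in WT with GH against 39.0 ± 16.9 without. Some of these counts depend on the scaling. With quantile normalization 0 hepatocyte markers passed in KO, and 1 fell and 0 rose in WT. It gave 3 macrophage markers that fell in KO, and 1 brown adipocyte marker in KO and 2 in WT. With each array centred on its median, 5 macrophage markers fell in each genotype, and 2 brown adipocyte markers in KO and 4 in WT.

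Retn, the adipocyte hormone resistin, averaged 3461 ± 1030 in KO without GH against 1832 ± 170 in WT without GH (log2 fold change 0.87, limma, adjusted p = 0.00932), while the other 8 of the 9 adipocyte markers did not pass.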
